A study of Mus musculus with 4 samples.

Results

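Hyaluronan synthesis and receptor genes comprised 7 of the 19465 genes measured: the synthases Has1, Has2 and Has3, the receptors Cd44 and Lyve1, and the hyaluronidases Hyal1 and Hyal2. They were picked by symbol, with earlier results of these sections known, so the levels given for them are a description. The data are spatial transcriptomes of formalin-fixed, paraffin-embedded tissue from 2 BALB/c mice. Each mouse received 100000 syngeneic 4T1 cells (a murine breast carcinoma line able to colonize the lung) in the mammary fat pad at 8 weeks of age, and its primary tumor (PT) and lung were taken on day 28. One section of 4 µm per tissue was profiled, giving n = 2 sections per tissue from the same animals, called mouse A and mouse B. Every mouse carried a tumor, and no lung of an uninjected animal was part of the comparison. Marker levels followed the tissue labels. A list of alveolar type 2 cell genes took 11169 and 6552 CPM (UMIs of the genes, scaled to 1e6 UMIs of the section) in lung A and lung B against 53.2 and 63.2 in PT A and PT B. A list of 12 genes chosen as markers of the carcinoma cells took 4454 and 5155 CPM in these PTs against 147 and 1391 in these lungs. The lists were chosen with earlier results of these sections known, so these levels describe the labels and are no independent check.

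Hyaluronan is a long unbranched sugar polymer of the extracellular matrix. It is made at the plasma membrane by the Has enzymes, which join UDP-glucuronic acid and UDP-N-acetylglucosamine, and it is cut by cell-surface and lysosomal hyaluronidases. Cd44 is its main receptor on leukocytes and carcinoma cells, and Lyve1 is best known as the receptor on lymphatic endothelium and on some tissue macrophages. In breast carcinoma and in inflamed lung the polymer accumulates in the stroma. On the GRCm38 (mm10) build the genes span chr17:17833691-17855589 (Has1), chr15:56665627-56694546 (Has2), chr8:106870242-106882902 (Has3), chr2:102811141-102901669 (Cd44) and chr7:110850607-110862953 (Lyve1). Hyal2 (chr9:107567873-107572778) and Hyal1 (chr9:107576950-107581699) are neighbors.

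Depth and background differed between the sections. The 9339 spots with over 200 detected genes (of 9445) held 10890154 to 30240176 UMIs per section, with a median of 1820 to 9174.5 UMIs per spot. Each spot covers a patch of tissue with more than 1 cell and often more than 1 cell type. Background was read from 1178 olfactory and vomeronasal receptor genes, which these tissues are not known to use. The 95th percentile of their levels was 1.70 CPM in the PT of mouse A, 0.539 and 0.397 CPM in the lungs, but 19.0 CPM in the PT of mouse B, which stood apart. Levels of different genes are not compared, since each gene is read by its own probes.

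**Figure D1:**
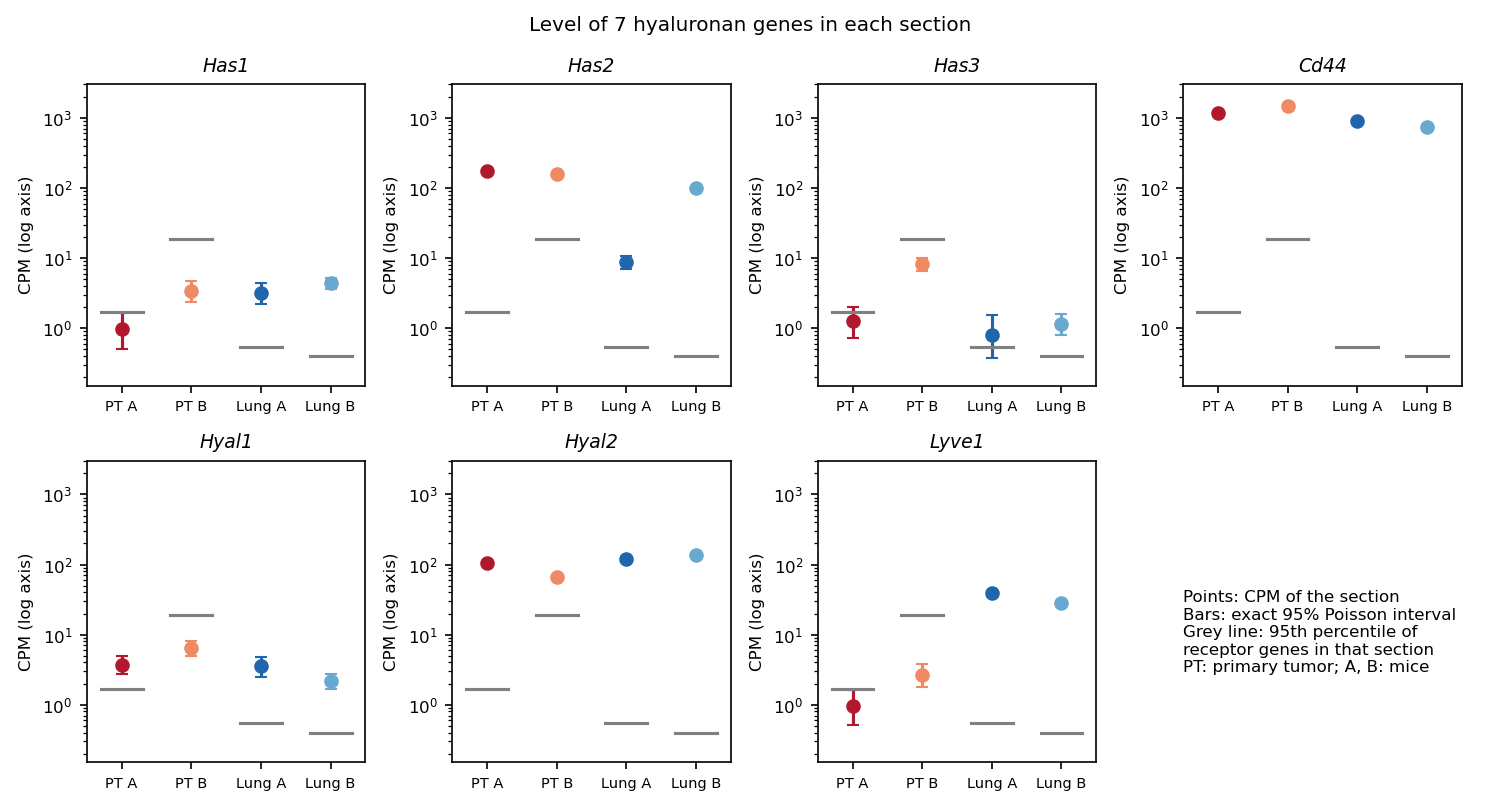
Level of each of the 7 genes in each section, in CPM on a log axis, with exact 95% Poisson intervals (counting error only) and the 95th percentile of the receptor genes of that section as a grey line. Has2, Cd44 and Hyal2 lie above the line in all 4 sections, and Lyve1 lies above it in the lungs only.

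Among the synthases, Has2, which makes most of the hyaluronan of the embryo and is the form most often linked to invasive carcinoma cells, was abundant in both PTs and uneven between the lungs. Its level was 172 CPM in the PT of mouse A (2330 UMIs) and 158 CPM in the PT of mouse B (1724 UMIs), against 8.72 CPM in the lung of mouse A (97 UMIs) and 100.1 CPM in the lung of mouse B (3026 UMIs). The lungs lay below both PTs, by 19.7-fold in mouse A and 1.58-fold in mouse B. The lungs differed from each other by more than the PTs did, and the mean log2 difference between tissues, -2.48, had an SD of 2.57 over the 2 mice. The lung of mouse A also had the lower level of the carcinoma marker list, 147 against 1391 CPM.

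The share of spots with a Has2 UMI was 41.2% and 28.6% in the PTs and 4.89% and 38.1% in the lungs of these mice, beside a median of 0.118% to 2.99% for single receptor genes. After each spot was thinned to 1000 UMIs, which left out 886 and 56 PT spots and 10 and 5 lung spots of mice A and B, the shares were 13.3% and 10.5% in the PTs and 0.533% and 6.45% in the lungs. The unthinned order of PT and lung in mouse B was thus opposite to that of the CPM, and the thinned order was not.

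Has1 and Has3 were close to background in several sections. Has1 gave 0.961 and 3.40 CPM in the PTs and 3.15 and 4.40 CPM in the lungs (mouse A first), and the tissues overlapped. Both PT values lay under the 95th percentile of the receptor genes of their section, while both lung values lay above it. Has3, a synthase of shorter chains, gave 1.26 and 8.26 CPM in the PTs and 0.809 and 1.16 CPM in the lungs, from 9 to 90 UMIs. Its highest value was in the PT of mouse B, where 68.9% of the receptor genes were lower, and no difference between tissues is read from it.

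Of the receptors, Cd44 was present in most spots of every section, with a UMI in 1842 of 2490 and 1937 of 2372 PT spots and in 1646 of 1697 and 2712 of 2780 lung spots, mouse A first. After thinning, the share was 69.9% and 66.5% in the PTs and 60.9% and 50.96% in the lungs, an order opposite to the unthinned one. Its level was 1185 and 1461 CPM in the PTs and 905 and 735 CPM in the lungs. Both lungs thus lay below both PTs, by 0.39 on the log2 scale in mouse A (1.31-fold) and 0.99 in mouse B (1.99-fold). This order depended on the scaling. With TMM library sizes, which moved every lung-to-PT log2 difference up by 0.51 in mouse A and 0.43 in mouse B, Cd44 was 0.12 higher in the lung of mouse A and 0.56 lower in that of mouse B.

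Lyve1 was measured above background in the lungs only. Lung A and lung B gave 38.7 CPM (430 UMIs) and 28.3 CPM (857 UMIs), and the PTs gave 0.961 CPM (13 UMIs) and 2.66 CPM (29 UMIs). The PT values were within background, since 80.1% and 5.94% of the receptor genes of those sections were lower, and no Lyve1 expression above background was detectable in the PTs at this depth. Both lung values lay above the 95th percentile of the receptor genes of every section. No fold is given, since it would be taken against background. In thinned spots the share with a Lyve1 UMI was 3.32% and 3.17% in the lungs and 0.187% and 0.604% in the PTs.

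Hyal2, a hyaluronidase anchored to the cell surface that cuts long chains, was higher in both lungs. It gave 103.9 and 65.4 CPM in PT A and PT B and 120.4 and 137 CPM in lung A and lung B, so the sections of the tissues did not overlap. Lung and PT differed by 0.21 (log2) in mouse A and 1.07 in mouse B, and the share of thinned spots with a UMI was 10.0% and 5.53% in the PTs and 12.4% and 12.3% in the lungs. Hyal1, the lysosomal hyaluronidase encoded next to Hyal2, was sparse, with 3.69 and 6.34 CPM in PT A and PT B and 3.51 and 2.18 CPM in lung A and lung B. In mouse A its levels in PT and lung differed by 1.05-fold with overlapping Poisson intervals, and the higher PT value of mouse B lay under the 95th percentile of its receptor genes.

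Across all genes, UMIs summed per section were compared between lung and PT by the edgeR quasi-likelihood test with Benjamini-Hochberg adjustment. It called 1139 of 15267 genes at 0.05, or 7.46%, with 963 higher and 176 lower in the lung. Without the PT of mouse A the split turned round, to 1387 higher and 5217 lower. DESeq2, with its own scaling, called 2644 genes with a more even split of 1436 higher and 1208 lower. Of the 7 hyaluronan genes, all tested, 1 was called, Lyve1, as higher in the lung. With the mouse as a block, 1817 genes or 11.9% were called and Has2 joined Lyve1, as lower in the lung. Since the genes were chosen with such values known, these calls are listed and nothing is read from them. In these sections, fewer cells of a type and less RNA per cell cannot be told apart.

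Within a section, spots were ordered by the share of their UMIs on the 12 carcinoma markers, none of which is a hyaluronan gene, and cut into 10 groups of equal size. Has2 was higher in the highest than in the lowest group in all 4 sections. From the lowest to the highest group its level went from 98.9 to 228 CPM in the PT of mouse A, from 80.3 to 215 CPM in the PT of mouse B, from 1.91 to 41.0 CPM in the lung of mouse A and from 13.1 to 217 CPM in the lung of mouse B. The lowest groups held 28 Has2 UMIs in each PT and 21 in the lung of mouse B. Many of their spots had no UMI on the markers, with 199 such spots in PT A, 79 in PT B and 209 in lung B. In the lung of mouse A, 936 of 1697 spots had no UMI on the markers, so the order of its lower groups is arbitrary and Has2 stayed between 1.91 and 3.95 CPM up to the seventh group. In the highest group of the lung of mouse B, the interval of Has2 overlapped those of the highest groups of the PTs. The correlation of Has2 with the UMIs per spot over blocks was 0.15 and 0.40 in the PTs and 0.07 and 0.38 in the lungs, mouse A first, and the part of depth was not tested.

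**Figure D2:**
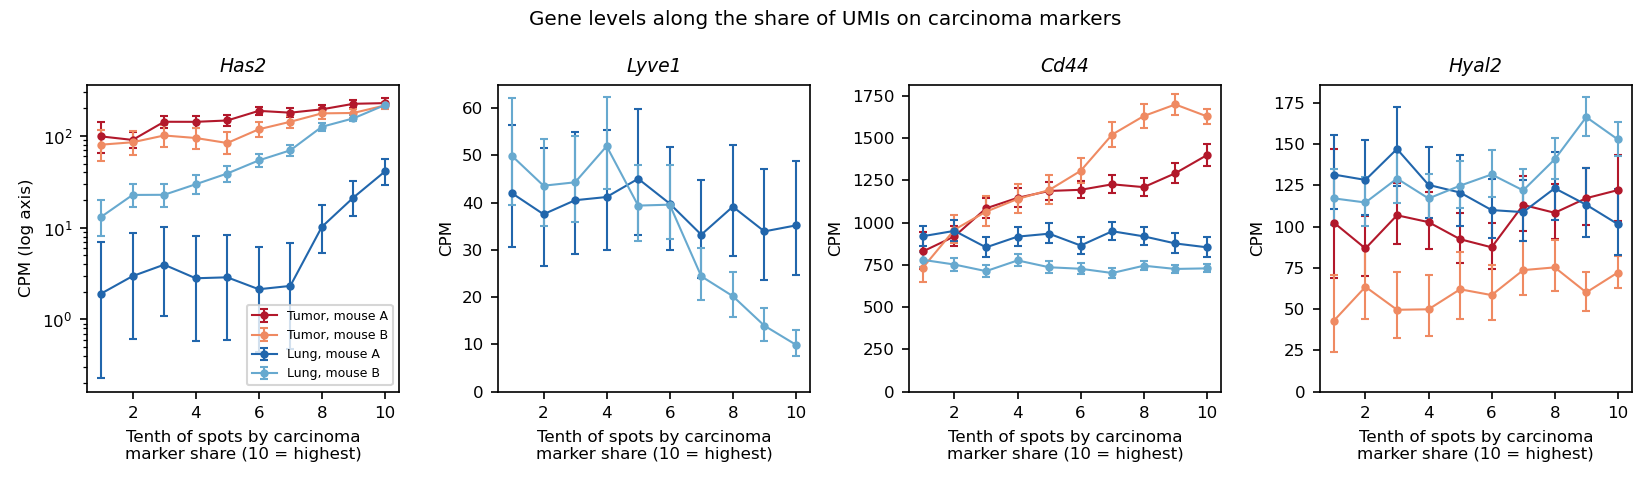
CPM of Has2 (log axis), Lyve1 (lungs only), Cd44 and Hyal2 in 10 equal groups of spots ordered by the carcinoma marker share, with exact 95% Poisson intervals. Has2 goes up in all 4 sections, Cd44 goes up in the PTs and stays level in the lungs, and Lyve1 goes down to 9.92 CPM in the lung of mouse B.

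Cd44 was ordered differently in the tissues. In the PTs its level went from 830.2 to 1399.9 CPM in mouse A and from 735 to 1629.7 CPM in mouse B between the lowest and the highest group. In the lungs the same step was from 920.3 to 855 CPM in mouse A and from 780.2 to 729.8 CPM in mouse B. Over blocks of neighboring spots, the Spearman correlation of Cd44 with the UMIs per spot was 0.34 and 0.78 in the PTs (77 and 75 blocks) and -0.06 and -0.11 in the lungs (53 and 93 blocks), mouse A first. Depth thus moved with Cd44 in the PTs, and its part in the order was not tested.

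Lung spots in the highest 10% of the carcinoma share (marker-rich spots, 169 in mouse A and 278 in mouse B) were then set against the lower 50% (marker-poor spots, 848 and 1390). Within 10% of the limit of the rich class lay 47 and 204 spots, so the class is a range and not a kind of tissue. That limit was 434 CPM at a median of 4960 UMIs per rich spot in mouse A, so very few marker UMIs placed a spot there. In mouse B it was 2456 CPM at a median of 18590 UMIs. Has2 was 41.0 CPM in rich and 2.90 CPM in poor spots of mouse A, a 14.2-fold difference. This fold rests on 42 and 15 UMIs, with intervals of 29.6 to 55.4 and 1.62 to 4.78 CPM. In mouse B it was 217 against 26.6 CPM (1183 and 282 UMIs), an 8.18-fold difference. A Has2 UMI was found in 18.9% of rich and 1.77% of poor spots in mouse A and in 81.7% against 17.1% in mouse B. The rich spots held 43.3% of all Has2 UMIs of the lung of mouse A with 9.21% of all its UMIs, and 39.1% with 18.0% in mouse B.

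Lyve1 went the other way in the lung of mouse B, with 9.92 CPM in rich and 45.4 CPM in poor spots, while its values of 35.2 and 41.3 CPM in mouse A had overlapping intervals. Alveolar, airway, neutrophil, endothelial, resident macrophage and B and plasma cell markers were lower in the same rich spots. The resident macrophage list was at 329 against 646 CPM in mouse B and 523 against 835 CPM in mouse A. Cbr2, a gene also of airway secretory cells, made up 216 of the 468 CPM of that list in the whole lung section of mouse B and 676 of 827 CPM in that of mouse A. The airway list was at 116 against 2058 CPM and 1264 against 1515 CPM. The lymphatic endothelium list was at 12.5 against 41.8 CPM in mouse B and 27.3 against 39.8 CPM in mouse A, and the endothelium list at 398 against 1399 CPM and 1435 against 1834 CPM. The alveolar type 2 list was at 1852 against 10133 CPM in mouse B and 9678 against 11454 CPM in mouse A, and the neutrophil list at 4553 against 60422 CPM and 49763 against 83216 CPM. Higher in them were the fibroblast list, at 2156 against 1433 CPM in mouse B and 1460 against 665 CPM in mouse A, and the macrophage, proliferation and mesothelium lists given further on. Depth moved too, with a median of 18590 UMIs in rich and 7467.5 in poor spots of mouse B and 4960 against 5995 in mouse A. The part of these differences in the Has2 and Lyve1 values was not tested.

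Of the remaining genes, Cd44 was at 855 CPM in rich and 916 CPM in poor spots of mouse A and 729.8 against 750.02 CPM in mouse B, with overlapping intervals in both lungs. The others differed in direction between the mice. Hyal2 was lower in the rich spots of mouse A (102 against 131 CPM), with overlapping intervals, and higher in those of mouse B (153 against 121 CPM), with intervals apart. Has1 was 7.81 against 2.51 CPM in mouse A and 2.94 against 5.56 CPM in mouse B, with overlapping intervals in both lungs. Has3 and Hyal1 had at most 9 UMIs in the rich spots of either lung. Over all genes, the edgeR quasi-likelihood test on the 4 sums called 0 of 12823 genes (0%) and so none of the 6 hyaluronan genes tested, with 811 genes at an unadjusted p under 0.05. DESeq2 also called 0, and with the mouse as a block edgeR called 0 (0%) with 3671 at an unadjusted p under 0.05.

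On the grid of spots, Has2 fell with distance from these same marker-rich spots, except at the farthest step in mouse A. The marker list fell over the same steps, so this is not separate from the comparison of rich and poor spots. From the marker-rich spots to spots 1 step, 2 steps, 3 to 5 steps and 6 or more steps away, Has2 in the lung of mouse B was 217, 157, 103 (321 UMIs), 54.4 and 31.6 CPM. In the lung of mouse A it was 41.0, 16.8, 7.73, 1.16 and 1.86 CPM, the last from 4 UMIs. Over the same steps Lyve1 in mouse B was 9.92, 17.5, 18.6, 43.5 and 38.3 CPM, and in mouse A it stayed between 35.2 and 41.9 CPM. In mouse A, Has1 was 7.81 and 9.16 CPM in the rich spots and their neighbors and 0.465 CPM both at 3 to 5 steps and beyond, where it rested on 2 UMIs and 1 UMI, and in mouse B it was 2.94 and 2.14 CPM near and 5.76 and 5.01 CPM far. The marker list itself went from 2959 to 567 CPM over these steps in mouse B and from 773 to 45.6 CPM in mouse A. These steps were chosen after the data were seen.

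**Figure D3:**
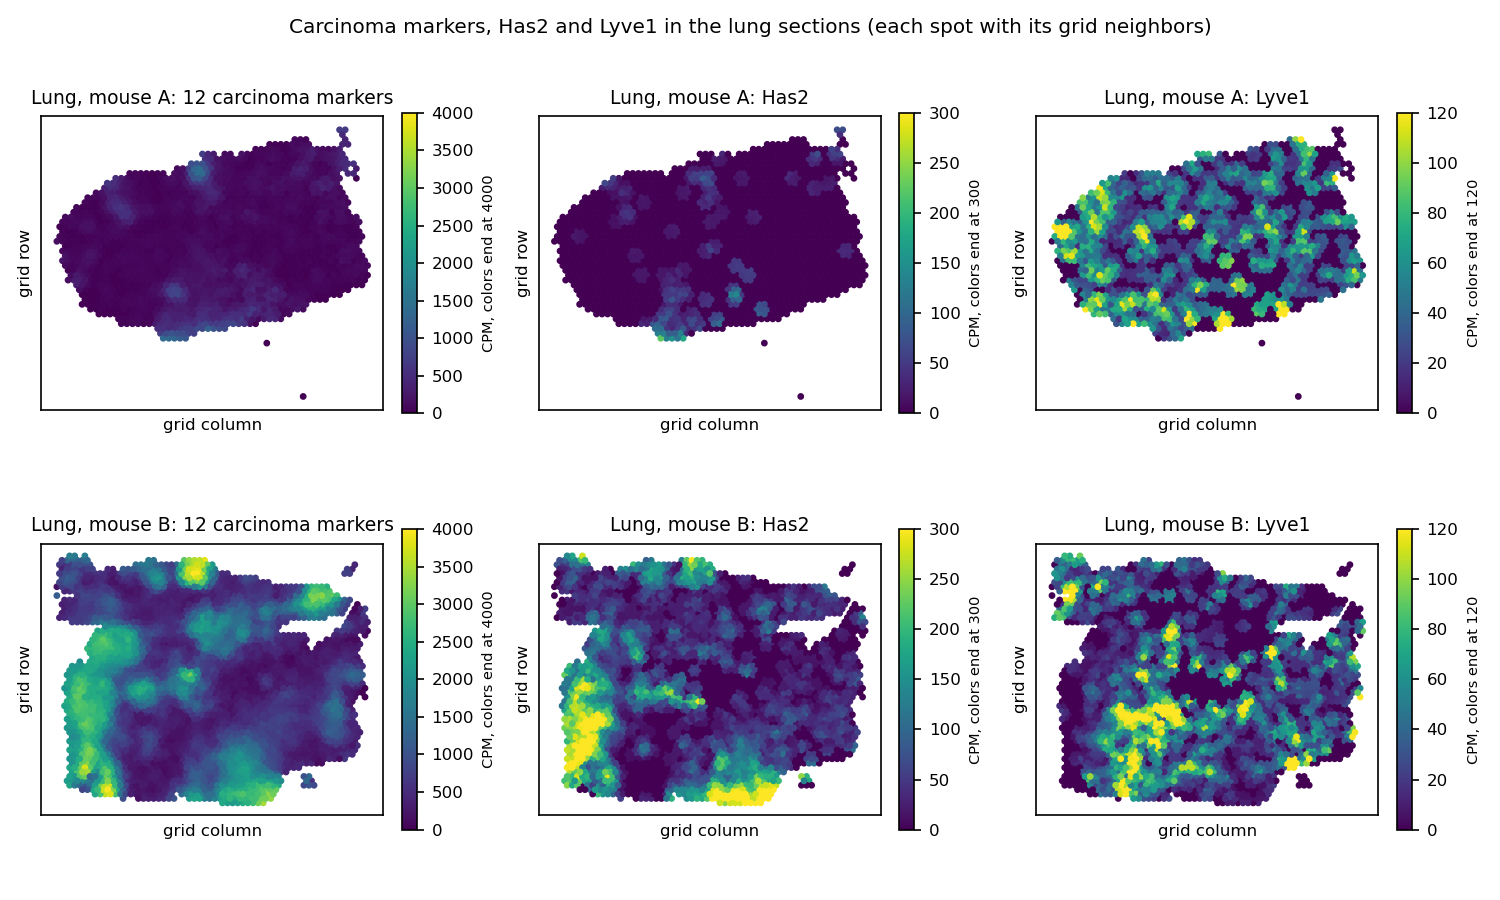
Maps of the lung sections of mouse A and mouse B with 1 point per spot, placed by grid row and column and colored by the CPM of the spot and its grid neighbors, for the 12 carcinoma markers, Has2 and Lyve1. In mouse B, Has2 is high along the left and lower edges, where the marker list is high, and Lyve1 is high in the interior.

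Next, 20 lists of marker genes for cell types and states were used in the same way, by setting the 10% of lung spots with the highest share of a list against the other spots of that section. Has1 was highest in spots rich in fibroblast genes, at 12.3 against 2.10 CPM in mouse A and 18.3 against 3.08 CPM in mouse B. It was also higher in spots rich in cardiac muscle genes (11.7 against 2.28 and 16.6 against 3.48 CPM) and in smooth muscle genes (8.51 against 2.51 and 14.8 against 3.60 CPM). The intervals were apart in both lungs for each of these lists, though in mouse A the enriched spots held only 10 to 14 Has1 UMIs, and with the highest 25% of spots the mean log2 ratio for smooth muscle was 1.20 in place of 1.90. Has3, close to background in the sections as a whole, was higher in spots rich in airway genes in both lungs, at 4.28 CPM (5 UMIs) against 0.402 CPM in mouse A and 4.34 CPM (9 UMIs) against 0.923 CPM in mouse B. With the highest 25% of spots its mean log2 ratio was 2.16 in place of 2.82.

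**Figure D4:**
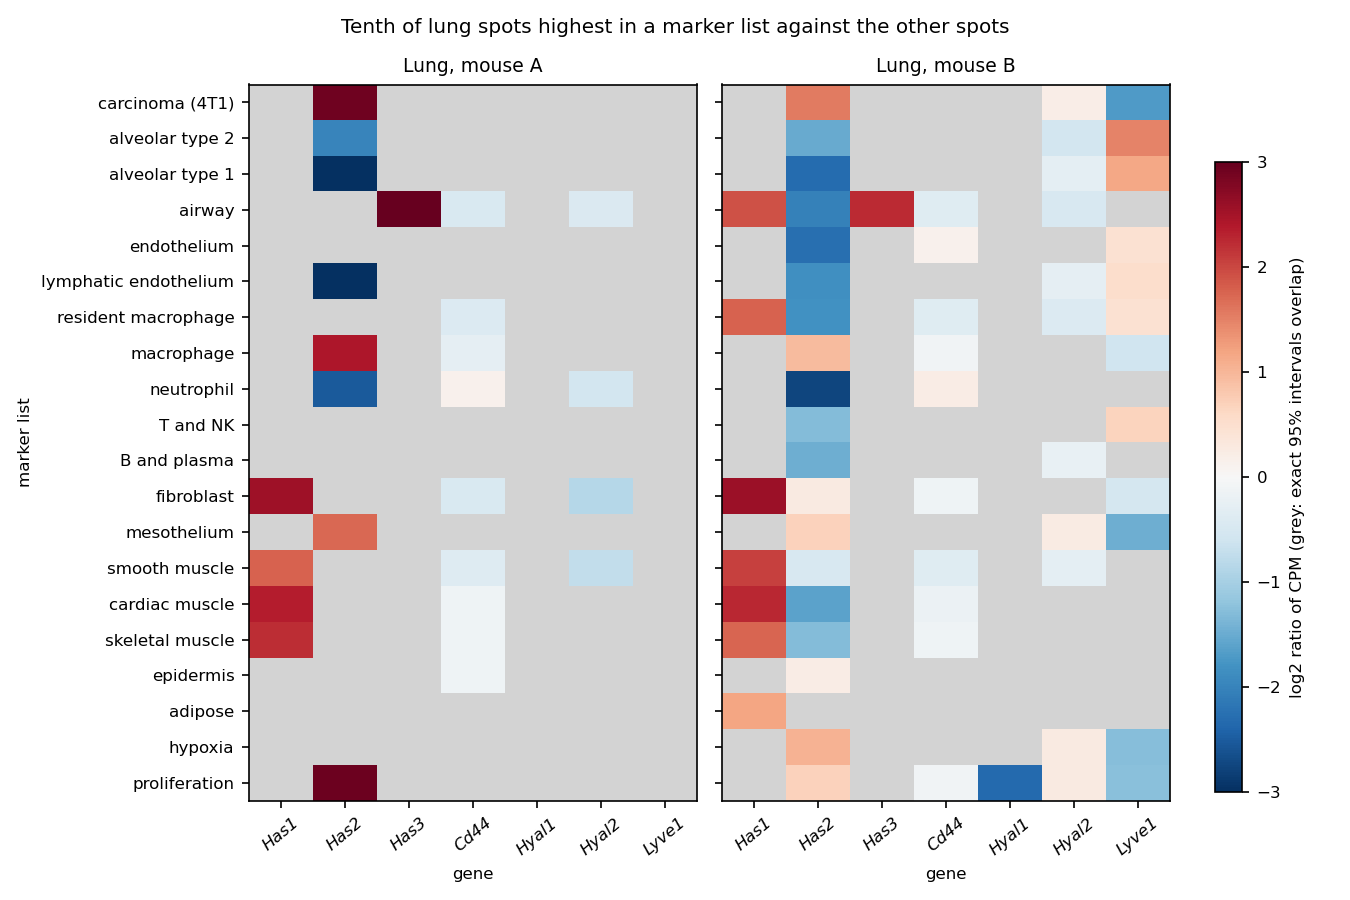
Log2 ratio of CPM between the 10% of lung spots highest in each of 20 marker lists and the other spots, for each hyaluronan gene and each lung; grey where the exact 95% Poisson intervals of the levels overlap. Has1 is red for fibroblast and muscle lists in both lungs, Has3 for the airway list in both, and Lyve1 for the alveolar lists in mouse B only.

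Of the 20 lists, Has2 was higher, with intervals apart, for 4 and lower for 4 in mouse A. In mouse B it was higher for 7 and lower for 12. The carcinoma list is 1 of the 20, so its part in these counts repeats the result for marker-rich spots. Intervals narrow as UMIs rise, and Has2 had 97 UMIs in lung A against 3026 in lung B. The counts are thus not compared between the mice, and they were not set against those of other genes. Has2 was higher in spots rich in macrophage genes (33.5 against 6.23 CPM in mouse A and 167 against 86.7 CPM in mouse B) and in proliferation genes (39.7 against 5.21 and 148 against 92.4 CPM). It was also higher in spots rich in the list for mesothelium (23.7 against 7.15 and 150.6 against 93.1 CPM), but that list was almost all Msln, at 25.7 and 285 CPM of 29.4 and 293 CPM in the lungs, and Msln was at 63.3 and 128 CPM in the PTs, so those spots are not called mesothelial. It was lower in spots rich in neutrophil genes, at 1.67 against 9.57 CPM and 15.8 against 106 CPM, and in alveolar type 1 genes, at 1.00 against 9.48 CPM and 21.5 against 106 CPM. The alveolar type 1 value of mouse A rests on 1 UMI, and with the highest 25% of spots its log2 ratio was -0.77 in place of -3.24. For the hypoxia list it was higher in mouse B (184 against 89.6 CPM), and the intervals overlapped in mouse A. In fibroblast-rich spots Has2 was 13.1 against 8.22 CPM in mouse A, with overlapping intervals, and 118 against 98.4 CPM in mouse B. The lists are not independent, since besides the fibroblast list the macrophage, proliferation and mesothelium lists were themselves higher in marker-rich than in marker-poor spots of both lungs (867 against 428 and 1247 against 623 CPM for the macrophage list, 678 against 180.1 and 1495 against 471 CPM for the proliferation list, and 78.1 against 22.4 and 470.3 against 116 CPM for the mesothelium list).

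Cd44 was lower, with intervals apart, in the spots rich in 8 of the 20 lists in each lung. It was higher for 1 list in mouse A and 2 in mouse B. These counts too depend on the number of UMIs and were not set against those of other genes. Cd44 was higher in spots rich in neutrophil genes, at 973 against 896 CPM in mouse A and 849.7 against 727 CPM in mouse B. It was lower in spots rich in airway genes (673 against 932 and 583.1 against 746 CPM), as it was in spots rich in smooth muscle and fibroblast genes. Cd44 was also lower in spots rich in the list for resident macrophages. Cbr2, a gene also of airway secretory cells, made up 676 of 827 CPM of that list in the lung of mouse A and 216 of 468 CPM in that of mouse B. Those spots are thus not read as macrophage spots apart from airway. With the highest 25% of spots the mean log2 ratio was -0.21 in place of -0.41 for airway and -0.19 in place of -0.37 for smooth muscle. Hyal2 was lower in spots rich in airway genes (91.7 against 124 and 100.3 against 140 CPM) and in smooth muscle genes (75.8 against 126 and 113 against 139 CPM). With the highest 25% of spots these mean log2 ratios were -0.28 in place of -0.46 and -0.18 in place of -0.51. Hyal1 had 1 list with intervals apart in mouse B and none in mouse A.

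Lyve1 in the lung of mouse B was highest in spots rich in alveolar type 2 genes, at 67.9 against 24.2 CPM, and in alveolar type 1 genes, at 58.6 against 26.1 CPM. Spots rich in lymphatic endothelial genes gave 39.5 against 27.6 CPM. Spots rich in the list for resident macrophages gave 38.1 against 27.6 CPM, and 38.6 against 38.7 CPM in mouse A. In that list Cbr2, a gene also of airway secretory cells, made up 676 of 827 CPM in the lung of mouse A and 216 of 468 CPM in that of mouse B, beside Mrc1 at 49.99 and 180.1 CPM, F13a1 at 92.2 and 47.0 CPM, Cd163 at 8.09 and 23.7 CPM and Timd4 at 0.989 and 1.16 CPM. In mouse A no list had intervals apart for Lyve1. The lymphatic list as a whole was low in the lungs, at 43.8 and 28.1 CPM summed over its 4 measured genes.

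Genes with the most similar pattern were sought over blocks of neighboring spots. For Cd44, among 6784 genes compared, they were S100a6, a calcium-binding protein (mean Spearman correlation over the 4 sections 0.61), Slpi, a secreted inhibitor of neutrophil elastase (0.52), and Msn (0.52), which encodes moesin, a linker between Cd44 and the actin cytoskeleton. For Hyal2, over the same genes, the correlations were weak, led by the prostaglandin transporter gene Slco2a1 at 0.32. Has2 had too few UMIs in the lung of mouse A for this rule. Over the other 3 sections, a choice made after the data were seen, its nearest genes among 8032 were Plau, the urokinase gene (0.54), Myof (0.53) and Csf3, the G-CSF gene (0.52), and Plau and Csf3 are carcinoma markers of the list used above. For Lyve1, over the lungs alone and among 8010 genes, they were Lpcat1 (0.54), a lipid enzyme of surfactant synthesis, Rgcc (0.52) and Lamp3 (0.50), a gene of the alveolar type 2 list. Among the 7 genes themselves, Has2 and Cd44 had correlations of 0.04 and 0.41 in the PTs and -0.23 and 0.01 in the lungs, mouse A first. The correlations varied between sections, for Cd44 with S100a6 from 0.37 in the lung of mouse B to 0.85 in the PT of mouse B. For Has2 with Plau they ran from 0.33 to 0.80. Cd44 also had a correlation of 0.78 with the UMIs per spot in the PT of mouse B, and the part of depth was not tested. Blocks of a section share their library, and these values carry no test.

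A list of 42 further genes of the pathway was examined in the fits across all genes. Of its 34 genes tested between lung and PT, 2 rose in the lung and 0 fell, beside 7.46% of all genes tested called and 6.31% called higher, so the number of calls was close to the background and is no result about the pathway. The median of their log2 fold changes was 0.017 beside -0.0046 over all genes tested. Both called genes were listed under the role of matrix partners. Vcan, which encodes the proteoglycan versican, gave 19.2 and 9.83 CPM in the PTs and 44.95 and 43.4 CPM in the lungs, a log2 fold change of 1.89 (SE 0.45, adjusted p = 0.0359 by the edgeR quasi-likelihood test). Itih4, a heavy chain of the inter-alpha-inhibitor family whose members include carriers of hyaluronan, gave 0.591 and 8.17 CPM in the PTs and 70.1 and 62.8 CPM in the lungs (adjusted p = 0.0216 by the same edgeR test). The sections of the tissues did not overlap for either gene. The PT values of mouse B, and that of mouse A for Itih4, lay under the 95th percentile of the receptor genes. So no fold is given for Itih4, and the fold of Vcan is limited by background in mouse B.

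**Figure D5:**
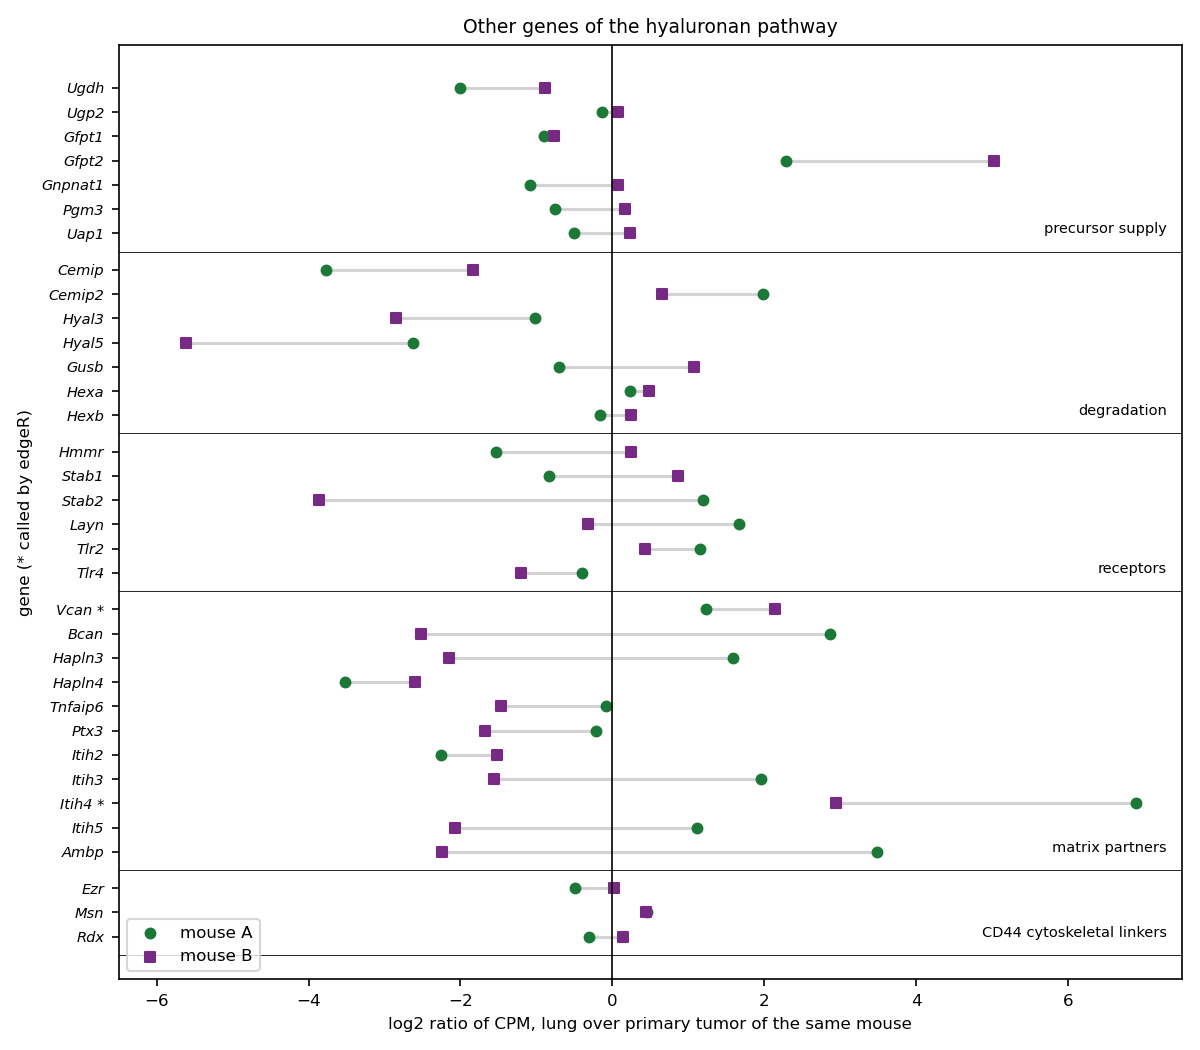
Log2 ratio of CPM between the lung and the PT of the same mouse for the 34 further pathway genes tested, grouped by role, with mouse A as circles and mouse B as squares and called genes starred. Vcan and Itih4 are called, the latter against PT values within background, and 17 of the 34 genes (50%) lie on different sides of 0 in the 2 mice, beside 34.1% of all genes tested. Of these 17, Stab2, Layn, Bcan, Hapln3, Itih3, Itih5 and Ambp had a PT value in mouse B under the 95th percentile of its receptor genes. Background limits their sign in that mouse.

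The other roles held no call. Of the 7 precursor supply genes, Ugdh, which makes UDP-glucuronic acid, was lower in both lungs (53.0 and 112 CPM against 213 and 207 CPM), with a log2 fold change of -1.10 (SE 0.39, adjusted p = 0.137 by edgeR). Gfpt2, an isoform of the first enzyme of hexosamine synthesis, was at 1.33 and 0.459 CPM in the PTs and 6.47 and 14.9 CPM in the lungs (adjusted p = 0.0576 by edgeR), with both PT values under the 95th percentile of the receptor genes. Of the 7 degradation genes tested, Cemip, a protein needed for hyaluronan breakdown by fibroblasts, gave 14.7 and 11.1 CPM in the PTs and 1.08 and 3.11 CPM in the lungs (log2 fold change -2.37, SE 0.84, adjusted p = 0.137 by edgeR). The PT value of Cemip in mouse B lay under that percentile, which limits this fold. None of the 6 further receptors was called; Hmmr, also a gene of dividing cells, was 37.7 and 46.8 CPM in the PTs and 13.04 and 55.4 CPM in the lungs. The 3 linkers of Cd44 to actin, Ezr, Msn and Rdx, had log2 fold changes of 0.08, 0.75 and 0.21. Ugdh, Gfpt2, Cemip and Hmmr were picked for mention after their values were seen, and the linkers are given as a whole role.

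Between marker-rich and marker-poor lung spots, none of the 30 pathway genes tested was called, as for all genes. Their median log2 fold change was -0.22 beside 0.013 over all genes tested. Of the 30 genes of the list tested there, 11 were higher in the rich spots of both lungs, 10 were lower in both and 9 differed between the mice (36.7%, 33.3% and 30%), beside 47.2%, 30.1% and 22.7% of all genes tested. These counts were 5, 1 and 1 for precursor supply, 2, 2 and 2 for degradation, 2, 3 and 0 for receptors, 0, 3 and 6 for matrix partners and 2, 1 and 0 for the linkers, with no test. As examples picked after their values were seen, Ugdh was 77.1 against 47.1 CPM in mouse A and 176 against 63.9 CPM in mouse B, and Gfpt1 was 44.9 against 25.5 CPM and 46.1 against 24.9 CPM. Vcan was 41.0 against 43.8 CPM in mouse A and 41.2 against 49.6 CPM in mouse B.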

How the data were processed

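Unnormalized UMI counts of each gene in each spot were deposited by the authors, made with Space Ranger 2.0.0 per the file headers on the mm10 build named in the labels. These counts come from probe pairs for fixed tissue. Spots with over 200 genes were kept, and their counts were summed per section (n = 2 mice, 4 sections) and given as CPM with exact 95% Poisson intervals, which cover counting error only. The number of barcodes present in every section was 1342, as all slides use 1 barcode set. No deconvolution or doublet caller was used. Summed counts were tested with edgeR 4.0.16 in R 4.3.3 (TMM, filterByExpr, Benjamini-Hochberg adjustment over all genes, threshold 0.05). DESeq2 1.42.0 was an alternative, and the edgeR code was tested on simulated data. In the fit of rich against poor spots the 12 carcinoma markers were left out. The poor class of the lung of mouse A was taken in file order among spots with no marker UMI. Both tissues of a mouse come from 1 animal, which pairs them, and the deviations of same-mouse sums from their group means had a correlation of -0.29 between lung and PT and 0.55 between rich and poor spots. Of 122 marker genes 116 were matched, and the other 6 were not analysed here. Blocks were of 6 rows by 12 columns of the grid with at least 9 spots, a minimum set after the data were seen. Named genes were the 7 hyaluronan genes, called pathway genes with 1 direction in both mice, and, for genes with at least 100 UMIs in every section, the 3 best correlated genes among those with at least 200. Other pathway genes named were picked after their values were seen, except the 3 linkers, given as a whole role. Members and lists were chosen with earlier results of these data known. Python 3.11.15, numpy 2.4.6 and scipy 1.17.1 were used for the rest. With 2 mice, p-values rest on 2 sums per group and no exact permutation test could reach 0.05.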

Additional observations from a re-analysis of the deposited data

How the results depend on the processing

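For lung against PT, the count of called genes (1139) was 1817 with the mouse as a replicate block, 2644 with DESeq2 and 2022 without the filter on low counts, and within 1.5 times for all spots or for spots with over 500 genes. Leaving out each section in turn, chosen after the data were seen, gave 883 to 6604, the latter without the PT of mouse A, where most calls were lower in the lung (5217 against 1387 higher), and 2519 without the lung of mouse B. The lone section left in a tissue is then assumed to vary like the others. The correlation of same-mouse sums was negative, and crossed pairs in the replicate block, also added afterwards, gave 2565. The block changed the call of 1 hyaluronan gene, Has2, and of none of the further pathway genes. Crossed pairs also called 2 of the 7 hyaluronan genes, 1 of them higher in the lung. The number of such calls was thus not particular to pairs from the same mouse. For rich against poor lung spots, each other setting and the replicate block gave 0, and leaving out each sum in turn gave 0 to 4268, the latter without the rich spots of mouse A. The cause of these differences was not tested. Of 70 values of single genes under an alternative that kept both mice, 52 stayed within the spread between the mice, 12 moved with the same sign and 6 reversed. That spread comes from 2 mice and is wide for some genes, so staying within it is a weak criterion. For Has3 in lung over PT (log2 -1.74, SD 1.56), it held both -0.38 with background subtracted and -3.22 as a mean over spots. Among the reversed values, Has1 in lung over PT became -0.16 (log2) as a mean over spots. In rich over poor spots the mean log2 ratio of Has1 was -0.25 for the highest against the lowest 25% and -0.37 with markers at equal weight, that of Has3 -0.032 with equal weight, and that of Hyal2 0.071 for the 25% classes. Leaving out each mouse in turn leaves the value of the other, and the sign of these ratios then differed between the mice. They ranged from -0.92 to 1.64 for Has1, -1.04 to 1.34 for Has3, -0.67 to 0.25 for Hyal1 and -0.36 to 0.34 for Hyal2. The share of spots with a Cd44 UMI, 19.5 percentage points higher in lung than in PT on average, was -12.3 points after thinning. Values near background, as in the PT of mouse B, are limited by it, and 4 alternatives gave no value.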
